A study of Mus musculus with 51 samples.

Results

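Glycogen is the branched glucose store of animal cells. Of 12393 symbols in the deposited tables, 7 genes of its synthesis and breakdown were followed across every group of a study of AKT1 transgenic mouse prostate. The 7 are Ugp2, Gys1, Gbe1, Ppp1r3c, Pygl, Pygb and Pygm. All probe sets that carry 1 of these symbols and no other were taken, which gave 13 probe sets of the 22626 in each deposited table. Ugp2 has 5 of them, Gys1 and Ppp1r3c have 2 each, and the other 4 genes have 1 each. In the larger of the 2 deposited tables (42 arrays of 12 h, 48 h and 15 d) 9 of the 13 were bright enough to be tested, and in the smaller (9 arrays of 6 d and 9 d) 11 were. The genes not tested in the larger table at all were Gbe1 and Pygm. The values in the text are linear intensities of a probe set on 1 array, and changes are differences of group means of log2 intensity. A change was called when its Benjamini-Hochberg adjusted p in limma, over all probe sets tested in the table, was under 0.05.

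Ventral prostate RNA came from mice of the FVB strain at 8 to 10 weeks of age on a standard diet. Mice were wild type or carried the AKT1 transgene (FVB-AKT1). The 12 h groups hold 4 arrays of wild type under placebo, 4 of transgenic under placebo and 5 of transgenic under RAD001. The 48 h groups hold 4, 5 and 4 in that order, and the 15 d groups 3, 7 and 6. No wild type array belongs to 6 d or 9 d, where placebo has 1 array a day and RAD001 has 3 and 4. RAD001, or everolimus, inhibits mTOR, a kinase that acts downstream of AKT. No wild type mouse received RAD001, so an effect of the drug without the transgene was not measured. The dose, the promoter that drives the transgene and the number of mice behind an array are not given in the sources used here, while the labels call the replicates biological. At 15 d, replicates 1 and 2 of the transgenic groups are reported apart from the others.

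Ugp2 (UDP-glucose pyrophosphorylase) makes UDP-glucose, the sugar donor that glycogen synthase adds to the chain. Gys1 is the synthase of muscle and most tissues other than liver, and Gbe1 is the enzyme that introduces branches. Ppp1r3c (PTG) holds protein phosphatase 1 on the glycogen particle, where the phosphatase activates the synthase and turns off phosphorylase. Pygl, Pygb and Pygm are the liver, brain and muscle forms of glycogen phosphorylase, which releases glucose 1-phosphate. AKT is known to phosphorylate and inhibit GSK3, a kinase that holds glycogen synthase inactive, so much of this pathway is controlled after the RNA is made.

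Promoter windows from RefSeq (GRCm38.p6), running from 250 bases before a gene's start to 50 after it, were found for 7 of the 7 genes and gave 8 windows, of which Ugp2 has 2. Windows are given for Pygl, Pygb and Ugp2, which had probe sets called higher between genotypes at 12 h. The window of Ppp1r3c is added because 1 of its probe sets lay lower, although it was not called (adjusted p = 0.213 in limma). Gys1 1416737_at and Gbe1 also lay higher at 12 h without overlap, by 0.41 and 0.61 on the log2 scale. Neither was called (adjusted p = 0.0782, and 0.144 in a fit of all probe sets), and their windows are not given. All 8 windows were searched on both strands for ACGTG and GCGTG, the 2 letter forms of the core motif that hypoxia-inducible factors bind. Capitals mark every match. The Pygl window is at chr12:70227634-70227933 on the minus strand and that of Pygb at chr2:150786546-150786845 on the plus strand. The first Ugp2 window is at chr11:21371218-21371517 on the minus strand and that of Ppp1r3c at chr19:36736555-36736854 on the minus strand.
Pygl: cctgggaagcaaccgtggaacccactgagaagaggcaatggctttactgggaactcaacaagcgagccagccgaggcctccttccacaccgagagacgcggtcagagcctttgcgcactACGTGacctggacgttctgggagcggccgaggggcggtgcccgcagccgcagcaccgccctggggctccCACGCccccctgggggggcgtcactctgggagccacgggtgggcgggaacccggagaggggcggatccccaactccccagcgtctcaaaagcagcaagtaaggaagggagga
Pygb: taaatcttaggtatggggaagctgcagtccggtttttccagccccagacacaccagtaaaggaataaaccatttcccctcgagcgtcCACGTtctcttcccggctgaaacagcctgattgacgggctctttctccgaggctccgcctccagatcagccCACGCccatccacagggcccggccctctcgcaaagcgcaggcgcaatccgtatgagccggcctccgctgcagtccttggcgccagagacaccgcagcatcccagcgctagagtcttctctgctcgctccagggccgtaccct
Ugp2: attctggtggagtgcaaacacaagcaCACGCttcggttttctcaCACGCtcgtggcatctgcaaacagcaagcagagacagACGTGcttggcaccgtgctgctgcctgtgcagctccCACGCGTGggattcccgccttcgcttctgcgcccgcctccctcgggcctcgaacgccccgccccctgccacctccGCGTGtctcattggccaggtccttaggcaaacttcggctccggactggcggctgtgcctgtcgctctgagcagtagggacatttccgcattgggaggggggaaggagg
Ppp1r3c: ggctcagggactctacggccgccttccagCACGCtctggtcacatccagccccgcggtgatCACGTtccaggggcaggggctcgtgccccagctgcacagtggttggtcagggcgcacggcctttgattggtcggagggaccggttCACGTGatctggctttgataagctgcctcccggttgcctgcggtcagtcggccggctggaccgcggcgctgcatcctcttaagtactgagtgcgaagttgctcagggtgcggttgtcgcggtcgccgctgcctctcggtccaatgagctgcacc
ACGTG lies 131 bases before the start in Pygl, 163 in Pygb and 169 in the Ugp2 window, and at 189, 104 and 103 in Ppp1r3c. The latter pair overlaps and forms a CACGTG palindrome. GCGTG lies 62 bases before the start in Pygl, 92 in Pygb and 221 in Ppp1r3c, and 5 times in the Ugp2 window, where the matches at 133 and 130 overlap. The windows of Gys1 and Gbe1, which also lay higher at 12 h, and the other window of Ugp2 have neither. Pygm has 1 of each. Of all 32851 windows of that length 19.6% hold ACGTG, 32.4% hold GCGTG and 7.15% hold CACGTG, so single matches are common. GTAAACA and ATAAACA, letters that FOXO factors of the AKT pathway bind, are in 3.65% and 4.6% of all windows and in none of the 8. A match is a description of the letters only.

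Array medians spanned 91.6 to 109.3 (12 h, 48 h, 15 d) and 98.1 to 110.4 (6 d, 9 d). The prostate genes Pbsn and Msmb read at least 1560 and 3592 on every array. They varied most at 12 h, where Pbsn ran from 5158 to 6714 in wild type. It ran from 1880 to 5882 in transgenic placebo and from 1560 to 6532 under RAD001. Msmb ran from 6953 to 8695, from 3660 to 7917 and from 3592 to 8412 in that order. Some values were listed at exactly 0 although the gene is abundant. Of 2461 probe sets with a median over 500 in the larger table, 332 were at 0 on at least 1 array, among them 1 for Actb with a median of 1111. A value of 0 was therefore read only as listed at 0, and no fold is given against it. Arrays with more than 500 such values were transgenic placebo replicates 8 and 9 at 15 d, RAD001 replicate 1 at 6 d and RAD001 replicate 3 at 9 d.

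In transgenic prostate at 12 h, the phosphorylases Pygl and Pygb and 3 of the 4 tested Ugp2 probe sets were higher than in wild type, both under placebo. The rises ran from 1.29-fold for Ugp2 1451742_a_at to 1.73-fold for Pygl. That is 5 of 9 tested probe sets called, all higher, against 24.8% of all probe sets called in either direction and 12.6% called higher. At 48 h the called probe sets were 3 of 9, all higher again: Pygl, Pygb and 1 of the 2 probe sets of Ppp1r3c, against a background of 29.8% either way and 13.4% higher. The median change of the 9 probe sets was 0.41 at 12 h and 0.10 at 48 h on the log2 scale, against -0.02 and -0.01 over all probe sets tested. The groups did not overlap for 7 of the 9 at 12 h (6 higher and 1 lower; 30% of all probe sets in either direction). At 48 h this held for 3 of the 9 (2 higher and 1 lower; 28.4%). The lower one was Ppp1r3c 1433691_at at both times. Both genotype comparisons share their placebo arrays with the RAD001 comparisons of the same time.

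**Figure D1:**
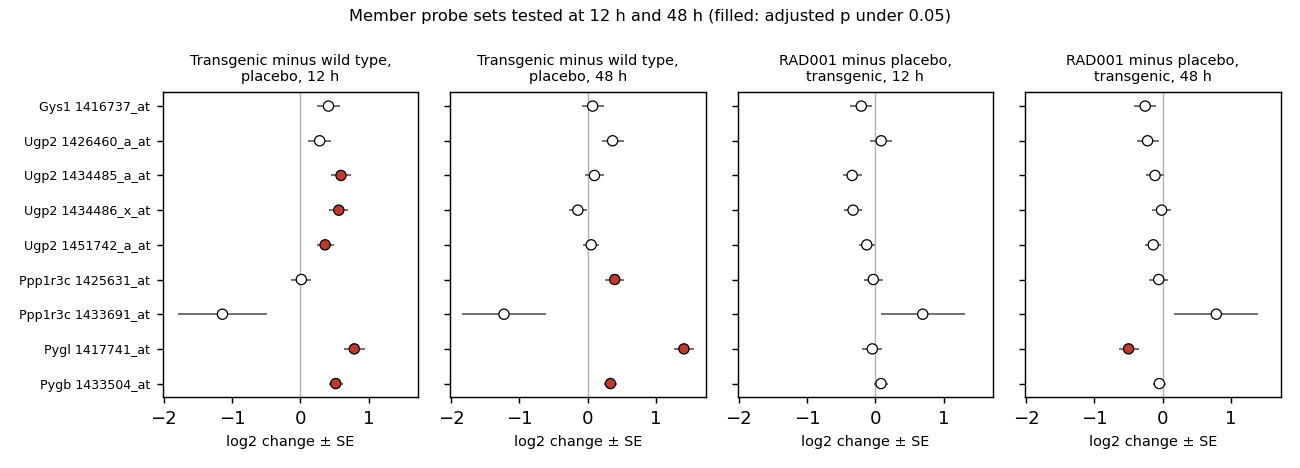
Log2 change with its standard error (horizontal bars) for the 9 tested probe sets, as transgenic minus wild type under placebo and as RAD001 minus placebo in transgenic mice, at 12 h and 48 h. Filled points passed an adjusted p under 0.05: 5 and 3 in the genotype panels, 0 and 1 in the RAD001 panels. The wide bars of Ppp1r3c 1433691_at come with 3 arrays of 15 d that are listed at 0.

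Pygl showed the largest rise of the tested members at both early times. At 12 h its intensity was 98.6, 93.3, 101.3 and 80.6 in wild type and 154, 200.1, 136 and 159 in transgenic placebo. Every transgenic array lay above every wild type array. The change was 0.79 ± 0.16 on the log2 scale (SE; 1.73-fold; 4 against 4 arrays; adjusted p = 0.000279). All standard errors of Pygl at 12 h and 48 h take in 5 transgenic placebo arrays of 15 d that are listed at 0. Those arrays took the floor with no spread among them, so the errors and adjusted p of Pygl may be too small. At 48 h wild type gave 74.1, 65.9, 71.5 and 55.9 and transgenic placebo 169.8, 180, 173, 204 and 157. Every transgenic array again lay above every wild type array. The change was 1.41 ± 0.15 (2.65-fold; 4 against 5 arrays; adjusted p = 4.15e-08), beyond that of 99.1% of all probe sets tested. Wild type itself fell between the times by 0.49 ± 0.16 (adjusted p = 0.0236), with no overlap. That fall no longer passed when any of 5 of the 8 wild type arrays was left out (adjusted p up to 0.0894 without replicate 4 of 48 h). The genotype effect at 48 h exceeded that at 12 h by 0.62 ± 0.21, which did not pass the test (adjusted p = 0.0669). It passed at 0.0386 without transgenic placebo replicate 2 of 12 h, and at 0.0431 with the 12 h and 48 h arrays alone. It also passed with array weights, with the groups fitted alone and with the replicate number as a block. Over the settings tried its adjusted p ran from 0.0383 to 0.576.

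Under RAD001, Pygl had no called change at 12 h and was lower at 48 h. The RAD001 arrays of 12 h read 162.7, 163.3, 161, 169 and 128, of which 4 lay within the range of placebo and replicate 5 lay below it. The change was -0.04 ± 0.15 (95% interval -0.34 to 0.26; adjusted p = 0.976). At 48 h they read 112, 117, 165.5 and 111, so 3 of the 4 lay below all 5 placebo arrays and replicate 4 lay among them. Pygl fell by 0.50 ± 0.15 (1.41-fold; adjusted p = 0.0376), and it was the 1 called member of 9 at 48 h, against 5.91% of all probe sets. This call is close to the threshold. It was lost without any of placebo replicates 2, 3 and 4 or RAD001 replicates 1, 2 and 5 (adjusted p from 0.0628 to 0.127), and the other settings that end it are in the closing section. Against wild type of the same time, Pygl in RAD001-treated transgenic mice was still higher by 0.75 ± 0.15 at 12 h (adjusted p = 0.000384) and by 0.91 ± 0.16 at 48 h (adjusted p = 0.000198), with no overlap at either time. With the 15 d groups not split, where arrays at 0 share a group with measured ones, these calls were lost (adjusted p = 0.183 and 0.134), as were the genotype call of 12 h (0.165) and the wild type fall (0.437). The RAD001 effect at 48 h minus that at 12 h was -0.46 ± 0.21 (adjusted p = 0.456), and by limma 0 of 9 members were called in that test (1 of 9 at an unadjusted p under 0.05), against 0.0221% of all probe sets.

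Pygb was the brightest member, with a mean above that of 97.9% of all probe sets, although levels of different probe sets cannot be set against each other. At 12 h it read 1180, 1475, 1106 and 1324 in wild type, 1882, 1961, 1725 and 1680 in transgenic placebo, and 1768, 1879, 1990, 2064 and 1887 under RAD001. Both transgenic groups lay wholly above wild type. The genotype change was 0.52 ± 0.10 (1.43-fold; adjusted p = 0.000278), and the RAD001 change against placebo was 0.08 ± 0.10 (95% interval -0.11 to 0.28; adjusted p = 0.825). At 48 h wild type read 1661, 1501, 1483 and 1519 and transgenic placebo 2108, 1688, 2001, 1866 and 2052. The groups were closer but still apart, with a change of 0.33 ± 0.10 (1.26-fold; adjusted p = 0.00884; 0.0582 after quantile normalisation, which ends the call). The RAD001 arrays of 48 h read 2261, 1570, 1751 and 1971 and overlapped both other groups. Their change was -0.05 ± 0.10 against placebo (adjusted p = 0.88) and 0.28 ± 0.10 against wild type (adjusted p = 0.0546; 0.02 without RAD001 replicate 2). Against wild type, RAD001-treated transgenic mice thus had 2 of 9 members called at 12 h (Pygl and Pygb, the latter at 0.60 ± 0.10; 21.5% of all probe sets) and 1 of 9 at 48 h (Pygl; 16.4%).

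**Figure D2:**
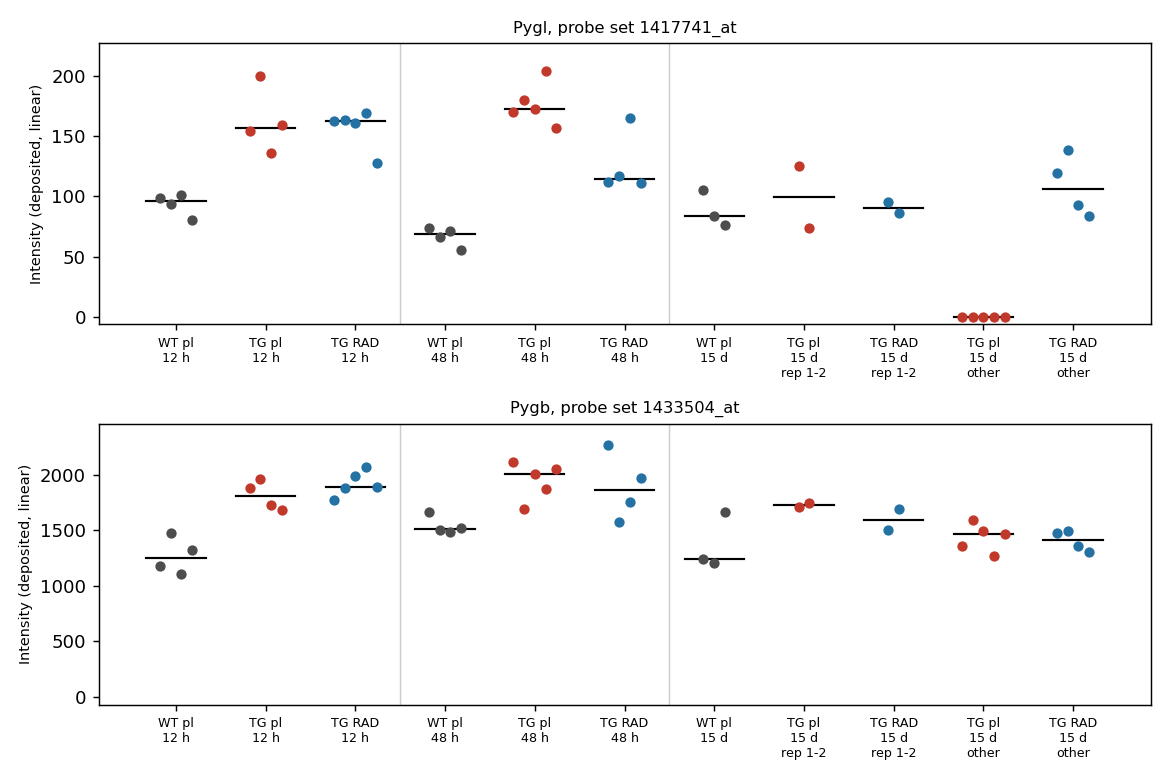
Linear intensity of Pygl (top) and Pygb (bottom) on each of the 42 arrays of 12 h, 48 h and 15 d; WT is wild type, TG transgenic, pl placebo, RAD RAD001, and bars are group medians. Pygl of transgenic placebo lies above wild type at 12 h and 48 h, and all 5 placebo arrays of the other replicates at 15 d are listed at 0; Pygb of transgenic placebo lies above wild type at 12 h and 48 h.

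Pygm was near or under the floor of 16 in the larger table, where its intensities ran from 4.81 to 30.2 and 23 of 42 arrays took the floor. In the fit of all probe sets its genotype changes there were -0.09 ± 0.16 at 12 h and -0.15 ± 0.16 at 48 h (adjusted p = 0.813 and 0.553). Its RAD001 change at 48 h was 0.37 ± 0.16 (adjusted p = 0.213). Values at the floor have no order, so these changes are poorly measured. In the smaller table the same probe set read from 350.1 to 953.6. The tables come from different array platforms, and no test was made between them. The skeletal muscle markers tested summed to between 496.5 and 1557 over 5 probe sets in the larger table and to between 1349 and 1948 over 6 in the smaller, and their part in the Pygm level was not tested.

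Of the synthesis genes, Ugp2 rose with genotype at 12 h on 3 of 4 tested probe sets and was called by limma on 0 of 4 at 48 h (1 of 4 at an unadjusted p under 0.05). 1434485_a_at read 311, 252, 259.7 and 234 in wild type and 334, 425.5, 465 and 374 in transgenic placebo at 12 h, with no overlap (0.59 ± 0.14; 1.51-fold; adjusted p = 0.0026). 1434486_x_at read 266, 219.9, 262 and 218 against 330.2, 365, 394 and 333 (0.56 ± 0.14; adjusted p = 0.00326). Their log2 values correlated at r = 0.89 over the 26 arrays of 12 h and 48 h, as a description, and the suffixes mark probe sets that may also read related transcripts. The brightest, 1451742_a_at, read 604.5, 546, 577 and 521 against 678, 754, 847 and 625, again with no overlap. Its change was 0.36 ± 0.13 (1.29-fold; adjusted p = 0.032), which did not pass without wild type replicate 2 or 4 or transgenic replicate 2 or 3 (adjusted p from 0.0695 to 0.124) or with the 12 h and 48 h arrays alone (0.0566). 1426460_a_at was higher by 0.28 ± 0.17 and did not pass (adjusted p = 0.244).

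At 48 h the 4 tested Ugp2 changes between genotypes ran from -0.15 to 0.36 with adjusted p from 0.0884 to 0.814. Wild type 1434486_x_at had meanwhile risen to 359, 403.5, 283 and 329, a change of 0.50 ± 0.14 from 12 h (adjusted p = 0.0103; 0.0517 without replicate 2 of 48 h), while transgenic placebo read 267, 335, 337, 365 and 251.5. The test of the difference itself gave -0.71 ± 0.20 for the genotype effect of 48 h minus that of 12 h (adjusted p = 0.0209). This was the 1 called member of 9 in that test, against 8.44% of all probe sets, and it did not pass without wild type replicate 2 of 48 h (adjusted p = 0.0603). The dim probe set 1426461_at, left out by the filter, went the other way. In a fit of all probe sets its genotype change was -0.44 ± 0.19 at 12 h, which did not pass (adjusted p = 0.118). It was lower in transgenic placebo by 0.56 ± 0.18 at 48 h (adjusted p = 0.025), from wild type values of 66.2, 77.8, 72.2 and 85.0 to 64.1, 54.4, 49.98, 50.8 and 39.1.

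RAD001 gave no called change of Ugp2 at 12 h or 48 h. At 12 h the pair 1434485_a_at and 1434486_x_at were lower by 0.34 ± 0.14 and 0.33 ± 0.13, with adjusted p of 0.222 and 0.231. The RAD001 arrays of 1434485_a_at read 365, 350.0, 355, 299 and 224 and overlapped both placebo groups. These 2 probe sets are also the members with an unadjusted p under 0.05 for RAD001 at 12 h. By limma 0 of 9 members were called there, against 2.28% of all probe sets. The other tested Ugp2 changes under RAD001 at 12 h and 48 h lay between -0.22 and 0.09.

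Gys1 (1416737_at) at 12 h read 82.6, 96.97, 89.7 and 119 in wild type and 124, 121, 132 and 134.9 in transgenic placebo. The groups did not overlap, yet the change of 0.41 ± 0.17 (1.33-fold) had an adjusted p of 0.0782. It passed at 0.0394 without wild type replicate 4, at 0.049 after median scaling, at 0.0257 with array weights and at 0.039 when the 2 groups were fitted alone. At 48 h wild type read 123.5, 126.5, 123 and 102 and transgenic placebo 159.5, 136, 104, 124 and 106, which overlapped (0.07 ± 0.16; adjusted p = 0.799). RAD001 arrays read 107, 118, 133, 92.98 and 109 at 12 h and 159, 91.1, 69.5 and 116 at 48 h. The RAD001 changes were -0.21 ± 0.16 and -0.26 ± 0.16, with adjusted p of 0.654 and 0.412. The other Gys1 probe set, 1450196_s_at, was at the floor on 20 of 42 arrays.

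Gbe1 (1420654_a_at) was dim, with a mean above that of only 33.4% of probe sets, so its values come from a fit of all probe sets. At 12 h it read 53.2, 51.1, 42.96 and 24.7 in wild type, 58.1, 62.8, 62.7 and 67.7 in transgenic placebo, and 37.5, 54.0, 27.4, 52.95 and 29.0 under RAD001. All 4 placebo arrays lay above every array of both other groups. The genotype change was 0.61 ± 0.28 (adjusted p = 0.144) and the RAD001 change -0.70 ± 0.26 (adjusted p = 0.228), and neither passed. At 48 h the 3 groups overlapped, at 31.9 to 59.0 in wild type, 43.4 to 56.99 in transgenic placebo and 31.3 to 54.6 under RAD001.

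**Figure D3:**
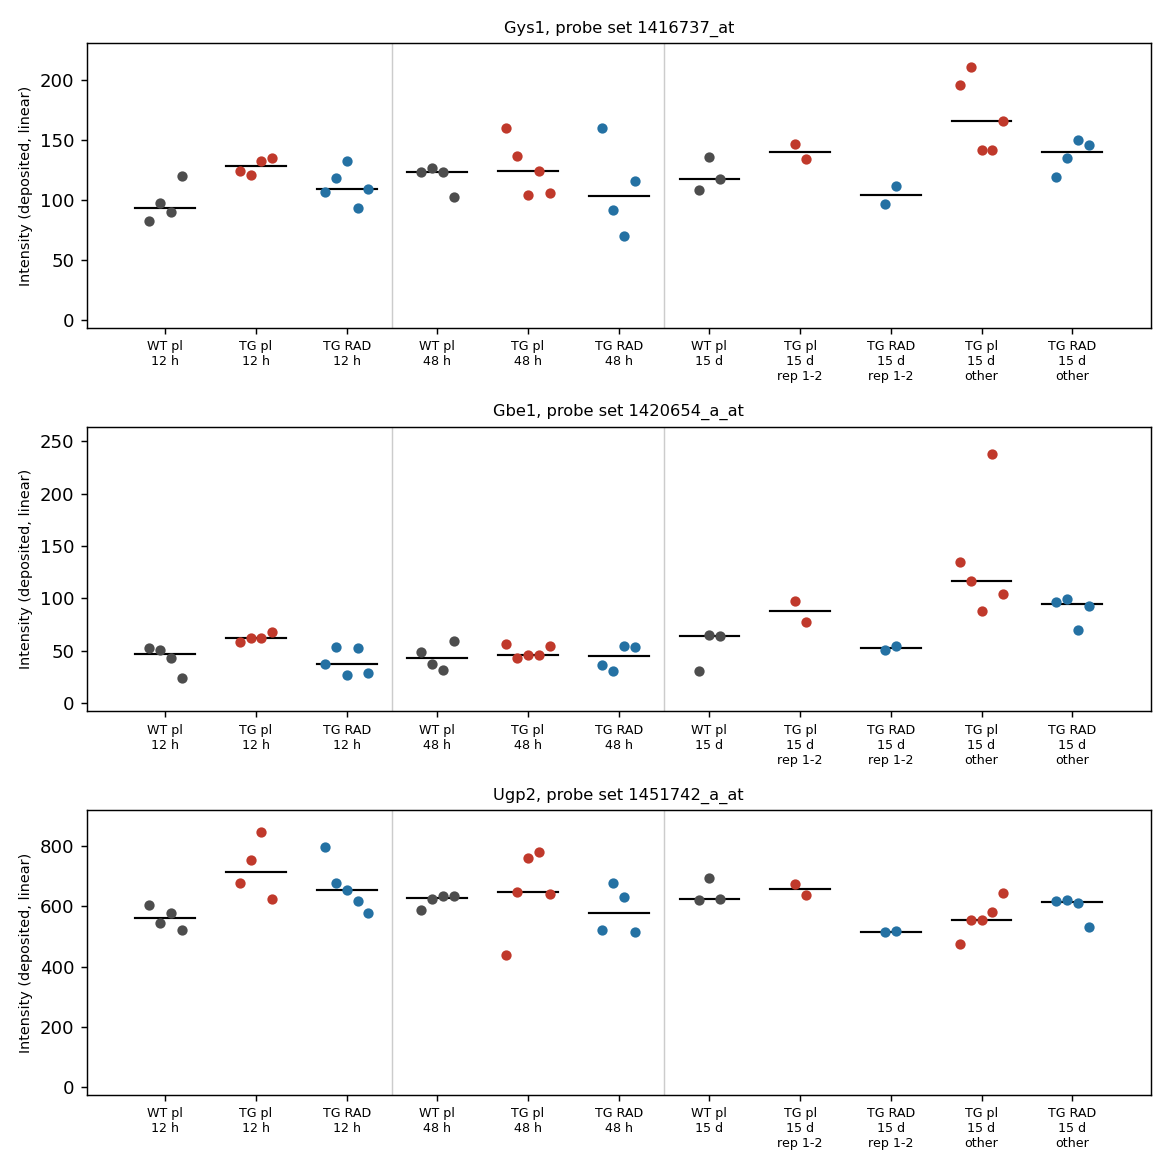
Linear intensity of Gys1 1416737_at (top), Gbe1 (middle) and Ugp2 1451742_a_at (bottom) on each of the 42 arrays of 12 h, 48 h and 15 d; WT is wild type, TG transgenic, pl placebo, RAD RAD001, and bars are group medians. Transgenic placebo lies above wild type at 12 h for all 3 and overlaps it at 48 h, and Gbe1 of transgenic placebo is highest among the other replicates of 15 d.

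The 2 probe sets of Ppp1r3c, the phosphatase-targeting subunit, disagreed. On 1433691_at wild type read 108, 105, 137 and 171 at 12 h and 186, 175, 159.8 and 137 at 48 h, while transgenic placebo read 59.1, 48.3, 88.3 and 44.6 at 12 h and 75.4, 65.8, 65.7, 73.8 and 69.5 at 48 h. At both times every transgenic array lay below every wild type array. The changes were -1.14 ± 0.65 (2.2-fold; adjusted p = 0.213) and -1.23 ± 0.62 (2.34-fold; adjusted p = 0.134), so neither was called. Their standard errors take in 3 arrays of 15 d where this probe set is listed at 0, transgenic placebo replicates 4 and 9 and RAD001 replicate 7. With the 12 h and 48 h arrays alone, a setting chosen after the data were seen, the same changes had adjusted p of 0.00104 and 0.000286. With exact zeros treated as missing, also chosen then, these were 0.000475 and 9.61e-05.

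Under RAD001 the same probe set read 129.8, 88.97, 91.6, 57.6 and 119 at 12 h and 83.99, 113, 127 and 175 at 48 h. All 4 arrays of 48 h lay above all 5 placebo arrays, which 7.62% of all probe sets did in either direction, and 3 of the 4 lay below all wild type arrays. The changes against placebo were 0.69 ± 0.62 at 12 h (adjusted p = 0.711) and 0.78 ± 0.62 at 48 h (1.72-fold; adjusted p = 0.545), and the latter had 0.0417 with the 12 h and 48 h arrays alone. The other probe set, 1425631_at, did not share this pattern. It read 201, 210.5, 175 and 186 in wild type and 202, 201, 190.5 and 185 in transgenic placebo at 12 h (0.01 ± 0.14; adjusted p = 0.962). At 48 h wild type read 132, 156, 138 and 131 and transgenic placebo 169, 125, 201, 216 and 221.5, a rise of 0.39 ± 0.14 (adjusted p = 0.0286). Here the groups overlapped, and the call was lost without any of wild type replicates 1, 3 and 4 or transgenic replicates 3, 4 and 5 (adjusted p from 0.054 to 0.0894) and with the 2 groups fitted alone (0.0888). In wild type this probe set fell from 12 h to 48 h by 0.47 ± 0.14 (adjusted p = 0.0189; 0.0629 without replicate 2 of 12 h). Its RAD001 changes were -0.03 and -0.06. Which of the probe sets reads the transcript of this tissue was not tested. In all, 4 of 9 members were called in wild type between 12 h and 48 h, against 21.2% of all probe sets: Ugp2 1434486_x_at and Pygb (0.29 ± 0.10; adjusted p = 0.0428) were higher at 48 h, and Pygl and Ppp1r3c 1425631_at were lower. The Pygb call was lost without any 1 of the 8 wild type arrays other than replicate 2 of 12 h (adjusted p from 0.0507 to 0.145).

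**Figure D4:**
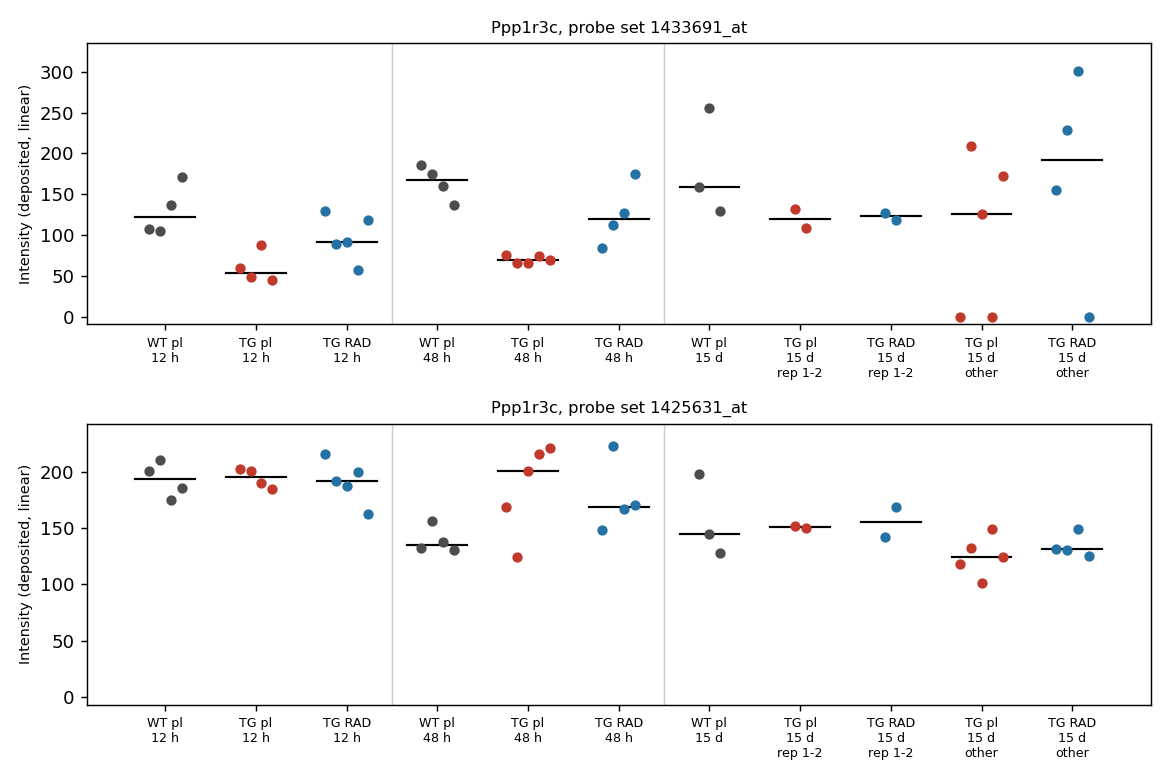
Linear intensity of the Ppp1r3c probe sets 1433691_at (top) and 1425631_at (bottom) on each of the 42 arrays of 12 h, 48 h and 15 d; WT is wild type, TG transgenic, pl placebo, RAD RAD001, and bars are group medians. In the top panel transgenic placebo lies below wild type at 12 h and 48 h with RAD001 between or overlapping, and 3 arrays of 15 d are listed at 0; in the bottom panel these groups overlap.

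At 15 d, replicates 1 and 2 of the transgenic groups gave no called member by limma, either between genotypes (0 of 9, against 1.72% of all probe sets; 1 of 9 at an unadjusted p under 0.05) or for RAD001 (0 of 9, against 0.324%; 0 of 9 unadjusted). Pygb of these placebo arrays, 1708 and 1747, lay above wild type at 1244, 1205 and 1666 (0.35 ± 0.13; adjusted p = 0.212; 0.0479 without wild type replicate 3). Pygl of wild type was 105.4, 83.4 and 76.6, and these placebo arrays at 125 and 73.6 lay on either side of it. RAD001 replicates 1 and 2 read 95.1 and 85.9 for Pygl and 1500 and 1689 for Pygb. For 5 of the 9 probe sets both RAD001 arrays lay below both placebo arrays (Gys1, Pygb and 3 of Ugp2), where 46.5% of all probe sets did not overlap in either direction.

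In the other replicates of 15 d Gys1 and 2 of the 4 tested Ugp2 probe sets were higher in transgenic placebo than in wild type, and Pygl could not be measured. By limma 4 of 9 were called, against 38.6% of all probe sets. Of these 3 were higher, against 16.9%, and the other is Pygl. Pygl is listed at 0 on placebo replicates 4, 6, 8, 9 and 10, so no change is given for it, and RAD001 replicates 3, 4, 6 and 7 read 119.7, 138, 93.0 and 83.5. In all, 17 probe sets are at 0 on all 5 of those placebo arrays, and 2 of them, Pygl and Uxs1, are above 0 on every other array of 12 h, 48 h and 15 d. The Pygl calls between genotypes and for RAD001 in these replicates (1 of 9, against 6.91%), and in the test of the RAD001 effect against replicates 1 and 2 (1 of 9, against 0.0663%), rest on these zeros. With zeros treated as missing the count is 3 of 8 between genotypes and 0 of 8 for RAD001.

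Among those replicates Gys1 read 195.8, 210.2, 142, 141 and 165 in transgenic placebo, all above the wild type values of 108, 136 and 117 (0.49 ± 0.18; 1.41-fold; adjusted p = 0.0271). It no longer passed without wild type replicate 1 or 3 or transgenic replicate 4 or 6 (adjusted p from 0.0603 to 0.13), with the groups fitted alone (0.0675) or with 15 d not split (0.0853). Ugp2 1434486_x_at read 377, 382, 390.5, 480.5 and 457 against 258, 319 and 275 (0.56 ± 0.15; adjusted p = 0.00311). With the replicate number as a block this call was lost (0.41; adjusted p = 0.159). Ugp2 1426460_a_at was higher by 0.53 ± 0.18 (adjusted p = 0.0175), but not without wild type replicate 2 (0.0586) or transgenic replicate 9 (0.0591). This call was also lost with the groups fitted alone (0.0814), without the arrays that hold over 500 zeros (0.069) and with 15 d not split (0.247). The replicate block ended it too (0.07; adjusted p = 0.873). Ugp2 1434485_a_at did not pass (0.27 ± 0.15; adjusted p = 0.155). Gbe1 in the fit of all probe sets read 135, 116.5, 88.4, 238 and 104 against 31.2, 64.8 and 64.5, with no overlap (1.34 ± 0.29; 2.53-fold; adjusted p = 0.000636). The values 88.4 and 238 are of replicates 8 and 9, which have 835 and 1092 values at exactly 0. The omission of arrays was not tried on Gbe1 here, as the filter leaves it out. The RAD001 arrays of Gbe1 at 96.3, 99.95, 69.7 and 92.9 overlapped placebo (-0.53 ± 0.26; adjusted p = 0.27). Ugp2 1426461_at, lower at 48 h, was here higher by 1.01 ± 0.20 (adjusted p = 0.000224). The brightest Ugp2 probe set did not follow (-0.21 ± 0.13; adjusted p = 0.208), nor did Pygb (0.08 ± 0.11; adjusted p = 0.589). Ppp1r3c 1425631_at had a change of -0.32 ± 0.15 (adjusted p = 0.0917), and 1433691_at is listed at 0 on 2 of the 5 placebo arrays. The median of all probe sets was -0.11 in this comparison, which is the point from which these changes are to be read. All 3 wild type arrays of 15 d serve both sets of transgenic replicates, so the genotype comparisons are not independent.

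At 6 d and 9 d 0 of 11 tested members were called for RAD001 by limma, against 0.803% of all probe sets, and 3 of 11 had an unadjusted p under 0.05 (Gys1, Gbe1 and Pygb). The comparison rests on 1 placebo array a day. For these 3 probe sets every one of the 7 RAD001 arrays lay below both placebo arrays, as did 13.6% of all probe sets in either direction. Pygb read 1940 at 6 d and 1651 at 9 d under placebo, against 1349, 1386 and 1207 and 1375, 1037, 1226 and 1549 under RAD001 (-0.46 ± 0.15; 1.38-fold; adjusted p = 0.294). Gbe1 read 115 and 163 under placebo and 44.6 to 104.5 under RAD001 (-0.82 ± 0.33; adjusted p = 0.447). Gys1 1416737_at read 149 and 134 under placebo and 93.5 to 131 under RAD001 (-0.39 ± 0.17; adjusted p = 0.501).

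Pygl was too dim for the filter in that table. It read 111 and 84.3 under placebo and 43.3, 57.7 and 47.3 at 6 d and 42.04, 41.9, 78.3 and 49.2 at 9 d under RAD001. All RAD001 arrays lay below both placebo arrays, with a change of -0.95 ± 0.28 in the fit of all probe sets (adjusted p = 0.369). The dim Gys1 probe set 1450196_s_at also lay lower throughout, at 97.8 and 83.3 under placebo and 27.3 to 52.9 under RAD001, with replicate 3 of 9 d listed at 0. Ppp1r3c 1433691_at read 115 and 178 under placebo and 157 to 293 under RAD001 (0.47 ± 0.26; adjusted p = 0.658). Pygm, whose smaller-table level is given above, changed by 0.32 ± 0.29 (adjusted p = 0.854). The 4 changes named with values for Pygb, Gbe1, Gys1 and Pygl are thus lower in every treated array and none of them passed the test.

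**Figure D5:**
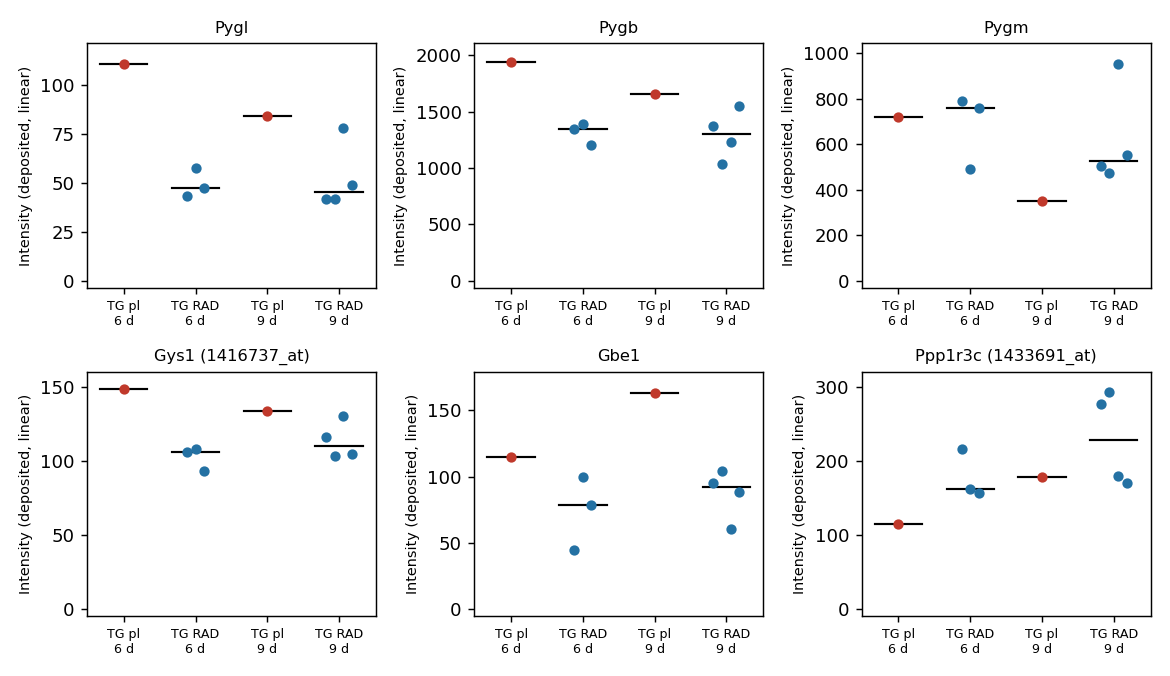
Linear intensity of 6 member probe sets on each of the 9 arrays of 6 d and 9 d; TG is transgenic, pl placebo, RAD RAD001, and bars are group medians, with 1 placebo array a day. Pygl, Pygb, Gys1 and Gbe1 lie lower on all 7 RAD001 arrays than on both placebo arrays, and no tested member passed an adjusted p under 0.05.

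Some cell type markers moved with genotype. Of 15 tested smooth muscle probe sets 10 fell at 12 h and 9 at 48 h, and none rose. Their summed intensity was 15530 to 20190 in wild type, 7067 to 9972 in transgenic placebo and 10910 to 16130 under RAD001 at 12 h, and 12730 to 17670, 6710 to 9883 and 10390 to 14600 at 48 h. Of 10 luminal probe sets 7 rose and 1 fell at 12 h and 6 rose at 48 h, with sums of 31010 to 34030 in wild type and 34910 to 40850 in transgenic placebo at 12 h. The 10 come from 8 genes, and Krt8 has several of them. Median intensities at 12 h in wild type and transgenic placebo were 1848 and 4138 for Krt8 1420647_a_at and 2494 and 2865 for Krt18. They were 6116 and 4034 for Pbsn and 8091 and 6065 for Msmb. Of 5 basal epithelial probe sets 3 fell at 12 h and 4 at 48 h. Of 10 fibroblast probe sets 3 fell at 12 h, and 6 fell and 2 rose at 48 h. Over all probe sets 24.8% were called between genotypes at 12 h and 29.8% at 48 h, so the fibroblast count of 12 h is near that share. In the other replicates of 15 d 9 smooth muscle and 3 fibroblast probe sets fell and 6 luminal ones rose, with smooth muscle sums of 6551 to 11130 against 14460 to 17680 in wild type. Of all probe sets 38.6% were called in that comparison. In replicates 1 and 2 of 15 d 1 smooth muscle probe set fell and 1 luminal one rose, against 1.72% of all probe sets called. Under RAD001 at 48 h 2 smooth muscle, 2 basal and 1 fibroblast probe sets rose and 3 luminal ones fell, against 5.91% of all probe sets called. Luminal genes differed there. Medians of transgenic placebo and RAD001 were 3983 and 2423 for Krt8 1420647_a_at and 2905 and 2626 for Krt18. They were 6862 and 6742 for Msmb and 4409 and 5064 for Pbsn. The genes listed at 0 on some array were Des, Myh11, Myl9 and Smtn among the smooth muscle markers and Epcam among the luminal ones. In these whole-tissue samples a change in the share of a cell type and a change in RNA per cell cannot be told apart. The part of cell composition in the rises of Pygl, Pygb, Ugp2 and Gys1, in the fall of Pygl under RAD001 and in the low Ppp1r3c 1433691_at was not tested.

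The other genes of glycogen handling were called in both directions and about as often as all probe sets, at 5 of 21 probe sets for genotype at 12 h and 6 of 21 at 48 h against 24.8% and 29.8%. Of 15 tested genes of the list (21 probe sets) Pgm2, Gsk3b and Phka2 rose between genotypes at 12 h and Phkg2 and Ppp1cc fell. At 48 h 3 probe sets rose, of Pgm2 and Phka2, and 3 fell, of Gyg and Ppp1cc. Pgm2, of the phosphoglucomutase family, rose by 1.07 at 12 h (adjusted p = 1.16e-06) and 0.48 at 48 h (adjusted p = 0.00646). Phka2 1434518_at, a regulatory subunit of the kinase that activates phosphorylase, rose by 0.33 and 0.52 (adjusted p = 0.0208 and 0.000201). Phkg2, a catalytic subunit of that kinase, fell by 0.31 at 12 h (adjusted p = 0.0128). Ppp1cc 1450149_a_at, a catalytic subunit of protein phosphatase 1, fell by 0.54 and 0.48 (adjusted p = 0.000118 and 0.000238). Gsk3b, which phosphorylates the synthase, rose by 0.64 at 12 h (adjusted p = 0.000337), and Gyg, the glycogenin primer, fell by 0.48 at 48 h (adjusted p = 0.0157). The list's median change was 0.12 at 12 h and 0.08 at 48 h.

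Under RAD001 at 12 h 0 of those 21 probe sets were called by limma (3 at an unadjusted p under 0.05), against 2.28% of all probe sets. At 48 h, where 5.91% of all probe sets were called, Pgm2 fell by 0.68 (adjusted p = 0.00232) and Ppp1cc 1450149_a_at rose by 0.36 (adjusted p = 0.0184). Both were opposite to their genotype changes, while Gsk3b rose by 0.46 (adjusted p = 0.0223), as it had with genotype at 12 h. The genotype and RAD001 comparisons share their transgenic placebo arrays, so their signs are not independent. Of the 11 probe sets of genes that also use UDP-glucose, 0 were called between genotypes at 12 h (1 at an unadjusted p under 0.05), against 24.8% of all probe sets. At 48 h Galm (0.80) and Uxs1 1426275_a_at (0.48) rose, against 29.8% of all probe sets called. Under RAD001 Uggt1 rose by 0.43 at 48 h (adjusted p = 0.0291; 5.91% of all probe sets called), with 0 of the 11 called at 12 h (1 unadjusted; 2.28%).

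Over the 26 arrays of 12 h and 48 h, the genes whose log2 values were most like Pygl were Smad7 (r = 0.92), Lamp1 (0.92) and Ifna1 (0.92). For Pygb they were Pigr (r = 0.88), Sdc4 (0.87) and Mbd1 (0.87), and for Ugp2 1451742_a_at Arf1 (r = 0.87), Fzd6 (0.84) and Mtpn (0.83). For Gys1 they were Mrtfa (r = 0.85), Bag6 (0.81) and Rpl41 (0.76), and for Ppp1r3c 1425631_at Map3k14 (r = 0.81), Alkbh5 (0.79) and Lrp8 (0.76). Within the members, Pygl and Pygb had r = 0.60 and Pygl and Ppp1r3c 1433691_at r = -0.76. These arrays share the genotype and treatment groups, so the correlations describe the pattern and were not tested.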

How the data were processed

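Total RNA was hybridised as biotin-labelled cRNA to Affymetrix arrays, per the labels' protocols. The authors deposited linear probe set intensities, already scaled (the sources used here give no method), in 2 tables that were analysed apart. Members and lists were chosen with earlier results of these data known. Intensities under 16 took that floor (from 10.31% to 15.84% of an array's values in the larger table) and log2 was taken. Probe sets with a mean under the table's 40th percentile were left out, which kept 13574 and 13576, and 2 more in the larger table for values beyond scanner range. Probe sets were tested apart. limma 3.58.1 under R 4.3.3 fitted 1 mean per group (transgenic 15 d groups split in 2) with moderated variances and an intensity trend, with Benjamini-Hochberg adjustment, and was tested on simulated data. The text names all member probe sets, genes of 2 pathway lists called at 12 h or 48 h, and the 3 genes most like each member's brightest probe set. Symbols come from the platform annotation: 20380 probe sets have 1, 691 several and 1555 none. Replicates sharing a number did not deviate together (correlations from -0.117 to 0.092). The number of arrays limits the precision. Other filters, floors, scalings, array weights, sample sets, the replicate number as a block and the omission of each array were tried as alternatives. Promoter sequences come from RefSeq.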

Additional observations from a re-analysis of the deposited data

Results flagged for a closer look

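Over the member probe sets, 82 groups of arrays were tested by Dixon's criterion, and in 5 of them 1 array stood apart. Chance marks about 1 group in 20, so 5 of 82 is near what chance gives. Gys1 1416737_at was low on wild type replicate 4 of 48 h (log2 6.67, intensity 102, nearest array 123). Pygl was low on RAD001 replicate 5 of 12 h (log2 6.998, intensity 128, nearest 161) and high on RAD001 replicate 4 of 48 h (log2 7.37, intensity 165.5, nearest 117). Ugp2 1451742_a_at was low on RAD001 replicate 7 of 15 d (log2 9.05) and on RAD001 replicate 3 of 9 d (log2 8.89), the latter an array with more than 500 values at exactly 0.

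Between times, the genotype effect on Ugp2 1434486_x_at was lower at 48 h than at 12 h by the interaction test in limma (-0.71 ± 0.20; adjusted p = 0.0209). Between the 2 sets of 15 d arrays, the RAD001 effect on Pygl differed by a fitted 2.82, which rests on 5 placebo arrays listed at 0 and is not a measured change.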

How the results depend on the processing

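Counts below are called members, of 9 tested unless stated. No filter tests 13, the filter at the 60th percentile 5, 1 probe set per gene 5, and exact zeros as missing 8 for the other replicates of 15 d, so their counts are not directly comparable. RAD001 at 48 h (1, Pygl) gave 0 with no filter on dim probe sets, the filter at the 60th percentile, which drops Pygl, quantile normalisation, median scaling, a fit of only the groups compared and 15 d groups not split, and 2 with exact zeros as missing or the 12 h and 48 h arrays alone. The Pygl adjusted p was 0.0543 without the filter, 0.0635 after quantile normalisation, 0.0536 after median scaling, 0.1 with the groups alone and 0.572 unsplit. The filter at the 60th percentile gave 1 for genotype in the other replicates of 15 d (main 4), 0 for RAD001 there, 0 for its difference from replicates 1 and 2, and 1 for RAD001-treated against wild type at 12 h (main 2). A floor of 64 gave 0 for that difference. With 1 probe set per gene the genotype counts were 3 of 5 genes at 12 h (in the main count also 3 genes: Pygb, Pygl and Ugp2) and 2 of 5 in the other replicates of 15 d, and 0 for the change of genotype effect (main 1). Array weights gave 5 and 3 against wild type at 12 h and 48 h (main 2 and 1) and 2 for the change of genotype effect, median scaling gave 2 against wild type at 48 h, and the groups alone gave 2 for genotype in the other replicates of 15 d and 2 for the change of genotype effect. Exact zeros as missing gave 0 for RAD001 in the other replicates of 15 d, 0 for the difference from replicates 1 and 2, and 2 against wild type at 48 h, and the 12 h and 48 h arrays alone gave 2 for the change of genotype effect. These last 2 settings were chosen after seeing the data. With 15 d groups not split, where the zeros of Pygl enter 1 spread with all transgenic arrays, the counts were 1 and 0 against wild type at 12 h and 48 h, 2 for wild type between times (main 4), 2 for genotype at 15 d and 1 for RAD001 at 15 d. There the fitted Pygl values were -1.72 (adjusted p = 0.00231) between genotypes and 1.92 (adjusted p = 0.000149) for RAD001, against 0.13 and -0.09 in replicates 1 and 2 alone. They rest on the 5 placebo arrays listed at 0 and are not measured changes. Unsplit, Pygl did not pass between genotypes at 12 h (adjusted p = 0.165).

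Leaving out 1 array at a time gave 4 to 5 for genotype at 12 h, 2 to 3 at 48 h, 0 to 1 and 3 to 5 in the 2 sets of 15 d, 0 to 1 for RAD001 at 48 h, 1 to 2 for RAD001 in the other replicates of 15 d, 2 to 3 and 1 to 2 against wild type at 12 h and 48 h, 0 to 2 for the change of genotype effect and 1 to 4 for wild type between times. Without arrays with over 500 exact zeros the count against wild type at 48 h was 2. The other causes were not tested.

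The replicate numbers share only a number. With the replicate block the counts were 6 and 4 for genotype at 12 h and 48 h, 2 for RAD001 in the other replicates of 15 d and 2 for the change of genotype effect, and the calls over all probe sets for genotype in the other replicates of 15 d went from 5243 to 3160. In that comparison Ugp2 1434486_x_at then had 0.41 (adjusted p = 0.159) and Ugp2 1426460_a_at 0.07 (adjusted p = 0.873). For replicates 1 and 2 of 15 d (correlation -0.117) the crossed pairing gave 0 members and 63 probe sets, against 0 and 69 with the block. Low signal limits Pygm, near or at the floor in the larger table, and the dim Gbe1.

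The background moved too. Calls over all probe sets ran, over the settings other than leaving out 1 array, from 106 (groups alone) to 1258 (array weights) for RAD001 at 12 h (main 309), from 306 (groups alone) upwards for RAD001 at 48 h (main 802), and from 66 (groups alone) for RAD001 in the other replicates of 15 d (main 938; 268 without the arrays with over 500 zeros). In replicates 1 and 2 of 15 d they reached 750 for RAD001 (main 44) and 2856 for genotype (main 233), both unsplit. For RAD001 at 6 d and 9 d they ran from 3 (replicate block) to 232 (array weights; main 109). Genotype calls at 12 h and 48 h stayed within 1.5 times the main counts of 3362 and 4051.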
